A study of Mus musculus with 2 samples.

Results

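The replication-dependent histone genes were examined in chromatin accessibility data from inflammation-experienced regulatory T cells of the mouse. Members were all protein-coding genes whose symbol in the GENCODE M21 annotation begins with Hist and a cluster number from 1 to 4 followed by h, which gave 67 of 21853 protein-coding genes. They comprised 6 genes for the linker histone H1, 18 for H2A, 18 for H2B, 12 for H3 and 13 for H4. The Hist1 cluster on chromosome 13 held 54 of them, Hist2 on chromosome 3 held 10, Hist3 on chromosome 11 held 2, and Hist4 on chromosome 6 held 1. The choice used symbols alone and no measured value.

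The assay was ATAC-seq, in which a transposase cuts and tags DNA that is not shielded by nucleosomes. The cells were primary cells of an adult male mouse of 6 months that carried Foxp3CreERT2 and Rosa26YFP, a Cre recombinase driven by the regulatory T cell factor Foxp3 and a fluorescent reporter. The labels give 2 technical replicates of 1 biological replicate, all in 1 group, with no untreated or resting group to compare with, and do not say what the inflammation was. They also name a bone marrow hematopoietic cell as the origin, and the cells are from 1 donor. At the promoters of marker genes, regions were listed for all 4 regulatory T cell markers (Foxp3, Il2ra, Ctla4 and Ikzf2) and for 5 of 6 T cell markers, Cd4 being the exception. None of 3 B cell and none of 3 myeloid markers had one, while 1 of 3 erythroid markers did (Klf1). The deposited lists hold no values per library, so no result below has a spread between replicates and none was tested. Intervals are exact (Clopper-Pearson) 95% intervals that cover counting only.

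Replication-dependent histone genes supply the histones that package newly copied DNA and are transcribed mainly in S phase of the cell cycle. Most have no introns, and their mRNAs end in a conserved stem-loop in place of a poly(A) tail. Many H2A and H2B genes sit head to head and share the DNA between their starts, and the clusters are gathered in a nuclear structure called the histone locus body. In the present annotation 62 of 67 members had a main transcript of 1 exon. A stem-loop of 16 bases was found within 150 bp after the stop codon in 62 of 67 members and in 6 of 21786 other protein-coding genes, H2afx among them. It began a median of 32 bp after the stop codon, between 22 and 59 bp. The 5 forms found in more than 1 member are shown because the stem separates H4 genes from the others. They are written 5′ to 3′ on the gene's strand from the RefSeq genome GRCm38.p6, with the loop bases in capitals.
Form 1, 38 members: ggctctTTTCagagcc
Form 2, 9 members: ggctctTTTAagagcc
Form 3, 8 members: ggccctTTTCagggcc
Form 4, 2 members: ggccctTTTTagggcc
Form 5, 2 members: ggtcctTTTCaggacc

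Form 1 was carried by 5 H1, 15 H2A, 10 H2B and 8 H3 genes, and form 2 by 1 H1, 1 H2A, 4 H2B and 3 H3 genes. Forms 3, 4 and 5 were found among members in H4 genes alone, 8, 2 and 2 of 13. The 5 members with no match were Hist2h2be, Hist1h2an, Hist1h2bp, Hist1h2bq and Hist1h2br. The last 3 are annotated with spliced transcripts, and the stop codon of another of their isoforms was followed by a stem-loop, which brought the count to 65 of 67.

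Promoter sequence also differed between the classes. The shared promoter of Hist1h2ah and Hist1h2bk is shown because it lay under the region with the greatest fold among members, and that of Hist1h2ba and Hist1h2aa because it was the H2A-H2B pair without a region. Both lie on chromosome 13 and are printed on the forward strand of GRCm38.p6, at chr13:22035569-22035868 and chr13:23934159-23934458. Each fills the interval between the starts of its genes to within a few bases. Capitals mark CCAAT (bound by NF-Y), the TATA box TATAAA and the octamer ATTTGCAT (bound by Oct factors) on either strand.
Hist1h2ah-Hist1h2bk: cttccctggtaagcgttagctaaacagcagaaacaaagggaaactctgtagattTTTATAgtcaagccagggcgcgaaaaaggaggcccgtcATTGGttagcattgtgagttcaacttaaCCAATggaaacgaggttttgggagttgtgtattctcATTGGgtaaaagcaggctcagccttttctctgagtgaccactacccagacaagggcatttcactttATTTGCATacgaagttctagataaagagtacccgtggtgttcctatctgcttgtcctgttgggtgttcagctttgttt
Hist1h2ba-Hist1h2aa: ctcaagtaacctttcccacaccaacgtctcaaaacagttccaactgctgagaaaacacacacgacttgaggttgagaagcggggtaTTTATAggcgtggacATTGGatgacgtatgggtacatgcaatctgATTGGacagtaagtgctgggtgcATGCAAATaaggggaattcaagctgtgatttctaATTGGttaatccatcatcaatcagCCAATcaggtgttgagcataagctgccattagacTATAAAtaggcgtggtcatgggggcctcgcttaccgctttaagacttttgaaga

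The first sequence held 3 CCAAT, 1 TATAAA and 1 octamer, and the second held 4, 2 and 1. The pair with a region and the pair without one therefore both carried all 3 motifs. Motifs were counted on both strands from 250 bp before to 50 bp after the annotated start of every protein-coding gene. CCAAT was present at 56 of 67 members (83.6%) and at 38.9% of all protein-coding genes. It was found at 18 of 18 H2A, 18 of 18 H2B, 11 of 12 H3, 5 of 6 H1 and 4 of 13 H4 genes. The H3 gene without it was Hist1h3f and the H1 gene Hist1h1d. Their annotated starts lie 433 and 1828 bp before the start codon, so the sequence just before the start codon was not searched there. TATAAA was present at 37 members (55.2%), against 12.6% of all genes and 7.05% of genes with a promoter region. A match at any place in the window and on either strand counted, so these shares are not counts of working TATA boxes. The octamer, long known from the H2B promoter, occurred at 15 members (22.4%), against 1.58% of all genes. Those 15 were 7 H2A and 8 H2B genes. The windows of head-to-head partners overlap, so 1 site of any motif can count for both genes of a pair. A single octamer between the starts counted for both genes of Hist2h2ac-Hist2h2be, Hist1h2ah-Hist1h2bk, Hist1h2ae-Hist1h2bg, Hist1h2ac-Hist1h2bc and Hist1h2ba-Hist1h2aa. The counts by class therefore do not show to which gene of a pair a site belongs. The GC box GGGCGG was present at 28 members (41.8%), 10 of them among the 13 H4 genes, against 43.9% of all genes and 62.6% of genes with a promoter region. From 500 bp before to 100 bp after the start the order turned, with 67.2% of members against 50.2% of all genes. No member held the HINFP-type sequence AACGTCCG, which 0.238% of all genes hold, and 3 members, all of class H4, held an E2F-type match (TTTCCCGC or TTTGGCGC), against 2.05% of all genes. Only exact matches to these letters were counted, so sites that differ from them in any base were missed.

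**Figure D1:**
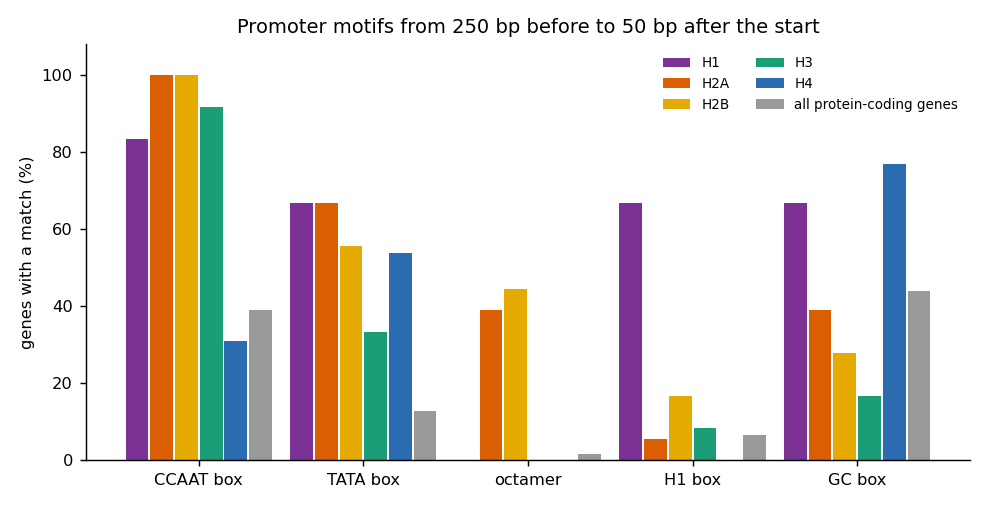
Share of genes (y axis, percent, from 0) with a match to each of 5 motifs (x axis) in each histone class (coloured bars) and among all 21853 protein-coding genes (grey bars). CCAAT was present in every H2A and H2B gene, the octamer among members was found in H2A and H2B genes alone, and the H1 box was present in 4 of 6 H1 genes. A site between head-to-head genes can count for both.

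For the linker histones and H4, 3 more promoters are shown, 250 bases before to 50 bases after the annotated start, on the gene's strand of GRCm38.p6. Hist1h1c (chr13:23738558-23738857, forward strand) had the highest region at its own start among H1 genes, and Hist1h1t (chr13:23695564-23695863, forward strand) had none. Their capitals mark AAACACA (the H1 box) together with CCAAT and TATAAA. Hist1h4c (chr13:23698405-23698704, reverse strand) had the highest H4 region, and its capitals mark GGTCCG, a run of letters chosen after the sequences were seen.
Hist1h1c: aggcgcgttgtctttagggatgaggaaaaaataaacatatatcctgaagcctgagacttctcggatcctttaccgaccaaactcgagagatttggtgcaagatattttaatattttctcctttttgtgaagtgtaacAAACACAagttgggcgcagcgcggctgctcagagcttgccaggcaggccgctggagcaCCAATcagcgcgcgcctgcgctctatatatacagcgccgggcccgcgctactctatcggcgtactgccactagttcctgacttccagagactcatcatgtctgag
Hist1h1t: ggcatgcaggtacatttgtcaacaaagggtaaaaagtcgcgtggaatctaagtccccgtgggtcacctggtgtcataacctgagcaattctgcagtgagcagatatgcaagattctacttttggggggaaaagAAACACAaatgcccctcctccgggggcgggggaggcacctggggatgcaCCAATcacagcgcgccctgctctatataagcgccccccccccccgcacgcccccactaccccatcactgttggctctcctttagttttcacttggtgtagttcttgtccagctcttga
Hist1h4c: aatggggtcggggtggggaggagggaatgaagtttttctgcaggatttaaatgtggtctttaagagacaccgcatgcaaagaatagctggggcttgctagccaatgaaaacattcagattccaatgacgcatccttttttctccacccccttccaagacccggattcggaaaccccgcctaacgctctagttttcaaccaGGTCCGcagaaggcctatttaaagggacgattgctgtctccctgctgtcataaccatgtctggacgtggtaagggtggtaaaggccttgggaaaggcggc

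Both H1 promoters carried an H1 box and a CCAAT box, although a region was listed at the first and none at the second. The H1 box was present at 4 of 6 H1 genes and at 9 of 67 members (13.4%), against 6.47% of all genes, and in the longer window at 16.4% of members against 14.4% of all genes. Hist1h1d, searched at an annotated start 1828 bp before its start codon, was among the H1 genes without it. GGTCCG was present at 12 of 13 H4 genes, 2 of 12 H3 genes and 1 of 18 H2B genes, and at 9.86% of all protein-coding genes. It ends in GTCCG, as does the HINFP-type sequence AACGTCCG, of which only exact matches were counted. The lack of such matches among members thus does not show that H4 promoters have no HINFP-type site. A match to any of these letters describes the sequence and does not show that a factor was bound.

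Accessible regions were listed at nearly all histone promoters. A region here is a set of overlapping or touching peaks from the deposited list that was cut at an irreproducible discovery rate (IDR), a measure of how well peaks rank alike in 2 sets of reads. At least 1 region came within 1000 bp of a transcript start in 63 of 67 members (94.0%, interval 85.4% to 98.4%). Over all protein-coding genes the share was 49.7%, 10861 of 21853. With a stricter window, 60 members (89.6%, interval 79.7% to 95.7%) had a region within 100 bp of a start, against 47.7% of all genes. The second window matters here because neighbouring histone genes lie so close that a region at 1 gene often falls in the wider window of the next. Ribosomal protein genes, a set with open promoters in most cells, had a region in 79 of 83 cases (95.2%). By class, a region within 1000 bp was found at 4 of 6 H1, 17 of 18 H2A, 17 of 18 H2B, 12 of 12 H3 and 13 of 13 H4 genes. By cluster, the counts were 50 of 54 for Hist1, 10 of 10 for Hist2, 2 of 2 for Hist3 and 1 of 1 for Hist4.

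The genes lacking a region within 1000 bp were Hist1h1d, Hist1h1t, Hist1h2ba and Hist1h2aa. Hist1h1t (testis linker histone), Hist1h2ba (TH2B) and Hist1h2aa (TH2A) encode variants known from the male germ line. A second deposited list, named pseudoreplicated, had no peak within 100 bp of their starts either. Hist1h1d is different. Its GENCODE start at chr13:23553262 lies 1828 bp before the start codon, and a region at chr13:23554865-23556342 with a fold of 8.61 held its RefSeq start at 23555032. Hist1h3f, Hist1h3b and Hist1h1b had a region within 1000 bp but none within 100 bp. At Hist1h3f the annotated start lies 433 bp before the start codon, and a region with a fold of 13.5 at chr13:23544185-23544983 began 133 bp downstream of that start and covered the whole coding sequence. At Hist1h3b the region in the window belonged to the neighbouring Hist1h2ab (fold 6.26), and the pseudoreplicated list had a peak at its own start with a fold of 4.73. Hist1h1b is described with the other H1 genes below. Of the 62 members with a start in the RefSeq table, 57 had a region within 100 bp of it.

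Fold enrichment, the height of a region's highest peak over a background that the sources do not define, followed the classes. At the gene's own start, meaning the region within 100 bp, the median fold was 16.8 over 17 H2B genes, from 11.0 to 27.6, and 15.3 over 17 H2A genes, from 4.28 to 27.6. It was 7.98 over 13 H4 genes, from 4.73 to 15.6, and 7.73 over 10 H3 genes, from 4.22 to 21.5. The 3 H1 genes with such a region stood at 5.55 (Hist1h1a), 10.4 (Hist1h1e) and 14.5 (Hist1h1c). The last 2 values come from peaks past the stop codon, and the peaks at these starts had folds of 4.59 (Hist1h1e) and 9.41 (Hist1h1c). All H2B values lay above the H3 and H4 medians, while the ranges of the 5 classes overlapped. The −log10 p-values ran in the same order for the core histones, with medians of 376 for H2B, 319 for H2A, 155 for H4 and 131 for H3. Paired H2A and H2B genes share their region, so their values are not separate measurements.

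**Figure D2:**
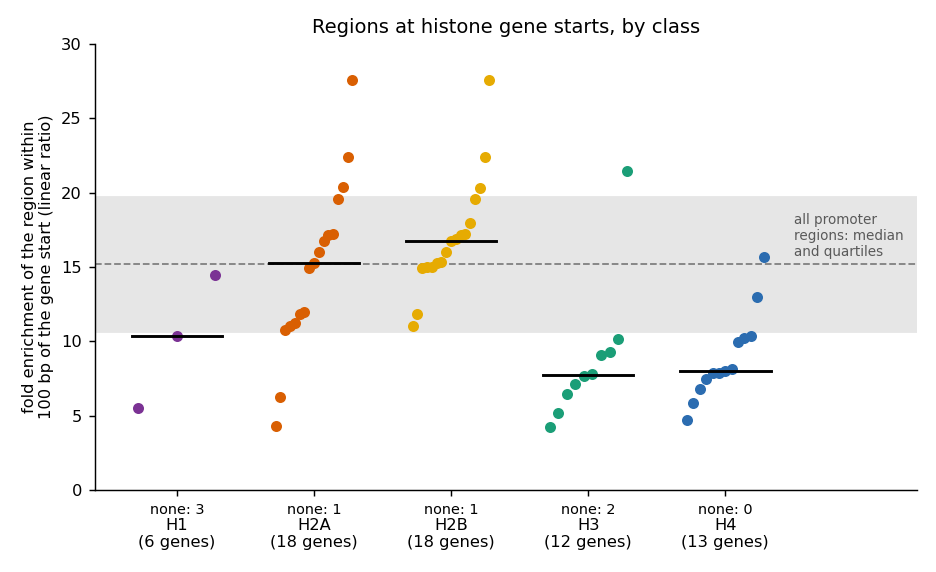
Fold enrichment (y axis, linear ratio from 0) of the region within 100 bp of each member's start, 1 point per gene, by histone class (x axis). Black bars are class medians, the dashed line and grey band are the median and quartiles of all 11184 promoter regions (15.2, 10.6 to 19.7), and the numbers under the axis count genes with no such region; most H3 and H4 points lie below the band, most H2A and H2B points within it or above.

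The highest promoter region was that of Hist1h2ah and Hist1h2bk at chr13:22035364-22036089, with a fold of 27.6, higher than 98.1% of all promoter regions. Next came the region of Hist1h2ac and Hist1h2bc at chr13:23683407-23684469 with 22.4, Hist1h3e at chr13:23562081-23562943 with 21.5, and Hist3h2a at chr11:58954106-58955293 with 20.4. Hist1h3e was far above the other H3 genes with a region at their own start, the next being Hist1h3g with 10.1. Hist1h3f, with no region at its annotated start, had a peak of 13.5 with its summit 105 bp before the start codon. Ranked by the highest region in the promoter window, the low end was as follows. Hist1h3d had a fold of 4.22 (chr13:23575603-23575813), Hist1h2af 4.28 (chr13:23533703-23533924), Hist1h4m 4.73 (chr13:21811536-21811833), Hist1h1a 5.55 (chr13:23763486-23763912) and Hist1h4k 5.86 (chr13:21750185-21750690). By the region at the own start alone, Hist2h3b (5.15) also belongs among the 5 lowest. High and low genes were mixed along the cluster. After Hist1h4k (5.86), the next members along the chromosome are Hist1h2ak and Hist1h2bn, whose shared region had a fold of 19.6.

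**Figure D3:**
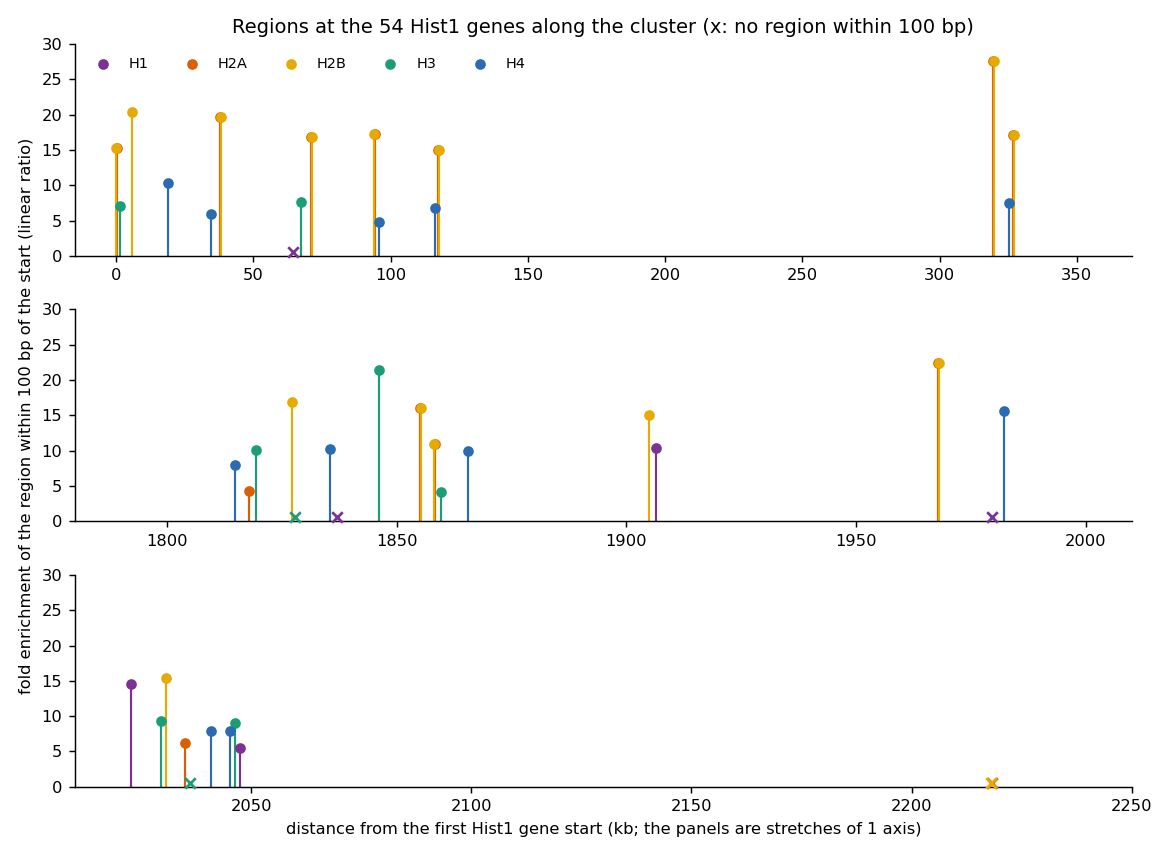
Fold enrichment (y axis, linear ratio) of the region within 100 bp of the start of each Hist1 gene, by distance from the first gene start of the cluster (x axis, kb, in 3 stretches), coloured by class; crosses mark genes with no such region. Paired H2A and H2B genes share a value and their points overlie each other; the tallest lines are mostly pairs, and the crosses at the far end are Hist1h2ba and Hist1h2aa.

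In the smaller clusters every member had a region at its own start. In Hist2 the own-start folds were 15 for Hist2h2bb, 13.0 for Hist2h4, 12 for Hist2h2aa2, 11.8 for Hist2h2ac and Hist2h2be, which share a region, 11.2 for Hist2h2ab and 10.7 for Hist2h2aa1. The 3 H3 genes of that cluster were lower, at 7.80 (Hist2h3c2), 6.47 (Hist2h3c1) and 5.15 (Hist2h3b). Hist3h2ba had a fold of 18.0 and Hist3h2a 20.4, both above the median of all promoter regions. Hist4h4, the H4 gene that stands alone on chromosome 6, had a fold of 8.16, from a peak past its stop codon. Its peak 60 bp before the start had 7.33.

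Set against all promoters, histone regions were low in fold but not in p-value. The members' promoter windows held 55 distinct regions, with a median fold of 10.4 (quartiles 7.73 and 15.5), against 15.2 (10.6 and 19.7) over all 11184 promoter regions. By fold, 28 of 55 (50.9%, interval 37.1% to 64.6%) lay below the lower quartile of all promoter regions and 5 above the upper quartile. By −log10 p, 32 of 55 lay above the median of all promoter regions, with a median of 215 against 173, whereas 16 of 55 did by fold. The regions were also narrower, with a median width of 717 bp against 900 bp. In the ranked list each region carries a −log10 p in each of 2 sets of reads. These were within 2-fold of each other in 55 of 55 regions, with a median ratio of the larger to the smaller of 1.2 and a highest of 1.79. What the sets were is not given, so this ratio is not a spread between libraries.

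Head-to-head H2A-H2B genes shared 1 region in nearly every case. Of 13 divergent pairs of members with starts within 1000 bp, 12 joined an H2A to an H2B gene, with a median of 258.5 bp between annotated starts (175 to 305). In 11 of these 12, a single region overlapped both starts. The median width of all promoter regions was 900 bp, so with starts this close a region at 1 start often reaches the other. The same count over other divergent pairs of protein-coding genes is not given here. The shared regions had a median fold of 16.8, from 11.0 to 27.6, and a median width of 759 bp. Between the starts lay 2 to 5 copies of CCAAT, with a median of 3. The lowest shared region was that of Hist1h2bf and Hist1h2ad (11.0, with 4 copies) and the highest that of Hist1h2ah and Hist1h2bk (27.6, with 3). The exception was Hist1h2ba and Hist1h2aa, with 305 bp and 4 copies of CCAAT between their starts. The other 12 H2A and H2B genes, which have no such partner, all had a region within 100 bp of a start, with a median fold of 15 and a range of 4.28 to 20.4, so the paired and unpaired values overlapped. Hist1h2bm at chr13:21721595-21722320, with 20.3, was the highest of these in Hist1. The remaining divergent pair, Hist1h2bh and Hist1h3f, has starts 659 bp apart and 2 separate regions, with folds of 16.9 and 13.5.

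Accessibility extended from the upstream side into the gene. The highest summit of the own-start region lay a median of 93.5 bp upstream of the start in 60 members, against 39 bp upstream over the 10430 protein-coding genes with such a region. Class medians were 119 bp upstream for H2B, 98 for H2A, 88 for H3 and 59 for H4. For the 3 H1 genes the median was 854 bp downstream. Paired H2A and H2B genes share 1 summit between their starts. Distances are from annotated starts, and in 11 of 67 members the annotated start is the start codon itself. The part of such gene models and of shared summits in the larger offset was not tested. At 100 bp before the start 89.6% of members were under a region, at the start 88.1%, at 200 bp after it 77.6% and at 300 bp after it 31.3%. Regions covered a median of 46.3% of the gene and 60.3% of the coding sequence. The class medians for the coding sequence were 100% for H4, 65.3% for H1, 59.7% for H2B, 58.5% for H2A and 34.8% for H3. H4 has the shortest coding sequence, 309 bp, against 408 bp for most H3 genes. Of 718 protein-coding genes that span at most 1000 bp, members of that length included, the median covered share was 0, and the 51 with a promoter region that are no members had a median of 80.9%. The 46.3% of members has no such length limit, as their genes span up to 37455 bp.

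**Figure D4:**
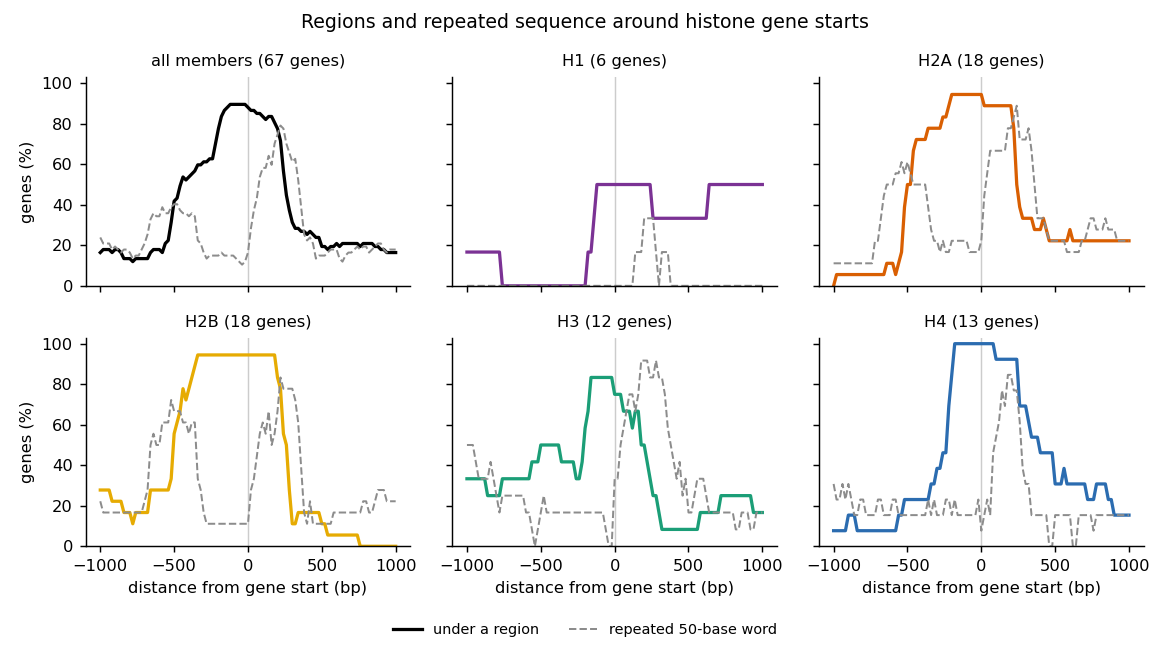
Share of genes (y axis, percent) whose base at each distance from the start (x axis, bp) lay under an accessible region (solid) or began a 50-base word found more than once in the genome (dashed), for all 67 members and by class. Coverage peaks just before the start in the core histone classes, while repeated words are most frequent about 200 bp after the start, inside the coding sequence; for H2A and H2B repeated words rise again about 500 bp upstream, the distance at which a head-to-head partner's coding sequence lies.

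Many histone coding sequences share long runs with other copies, which limits where short reads can be placed. Of 50-base words in the coding sequence, a median of 75% per member occurred more than once in the genome, and the share was over 50% in 50 of 67 members. The class medians were 85.4% for H3, 84.2% for H2A, 79.6% for H2B, 71.2% for H4 and 11.0% for H1, and Hist4h4, Hist2h2be and Hist2h2bb were at 0. In the 500 bp before the start the median was 0. The 34 members with no repeated word in those 500 bp had a region within 1000 bp in 30 cases and within 100 bp in 27. How the authors placed reads with several matches is not given in the sources used here, so values for near-identical copies are uncertain. The clearest case is a duplicated stretch in Hist1. Hist1h2bq, Hist1h2ao and Hist1h4m in one copy and Hist1h2br, Hist1h2ap and Hist1h4n in the other had 100% of words repeated in both windows. Regions were listed at both copies. The pair Hist1h2bq and Hist1h2ao had a fold of 17.2 and the pair Hist1h2ap and Hist1h2br 15, and the H4 genes had 4.73 (Hist1h4m) and 6.77 (Hist1h4n). Across the 60 members with an own-start region, Spearman's rho between fold and the share of repeated coding words was 0.0075. Within classes it was −0.036 over 17 H2A, 0.25 over 17 H2B, −0.61 over 10 H3 and −0.75 over 13 H4 genes. These points come from the same pooled reads and partly from shared regions, and the part of repeated sequence in the fold was not tested.

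In H1 genes several of the highest peaks lay beyond the coding sequence. At Hist1h1b the peaks were 131 and 408 bp past the stop codon, with folds of 2.60 and 17.0, in a region at chr13:21779272-21779988, and no region lay at its start at chr13:21780625. At Hist1h1c the peak 8 bp before the start had a fold of 9.41, and the peak 283 bp past the stop codon had 14.5. Hist1h1e had 4.59 at 24 bp before the start and 10.4 at 134 bp past the stop codon. Hist1h1d had 8.50 at 94 bp before the start codon and 8.61 at 444 bp past the stop codon. Hist1h1a, with 5.55 at 56 bp before the start, had no peak past its stop codon. By fold the highest peak was thus past the stop codon in 4 of the 5 H1 genes with a peak. At Hist1h1e that peak lies nearer to the start of Hist1h2be than to that of Hist1h1e, and without it the count is 3. At Hist1h1d the order of the peaks turns by −log10 p, with 115 before the start codon and 114 past the stop codon. In the other classes the highest peak was past the stop codon in 0 of 14 H2A, 1 of 13 H2B, 0 of 11 H3 and 2 of 13 H4 genes. A peak shared by a pair was counted for 1 gene, and at Hist1h2bc, the H2B case, the shared peak was counted for Hist1h2ac. No such share over all genes is given here. At Hist4h4 the highest peaks were 206 bp past the stop codon, with 8.16, and 60 bp before the start, with 7.33. Hist1h4h had 10.1 at 328 bp past the stop codon and 7.98 at 13 bp before the start.

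**Figure D5:**
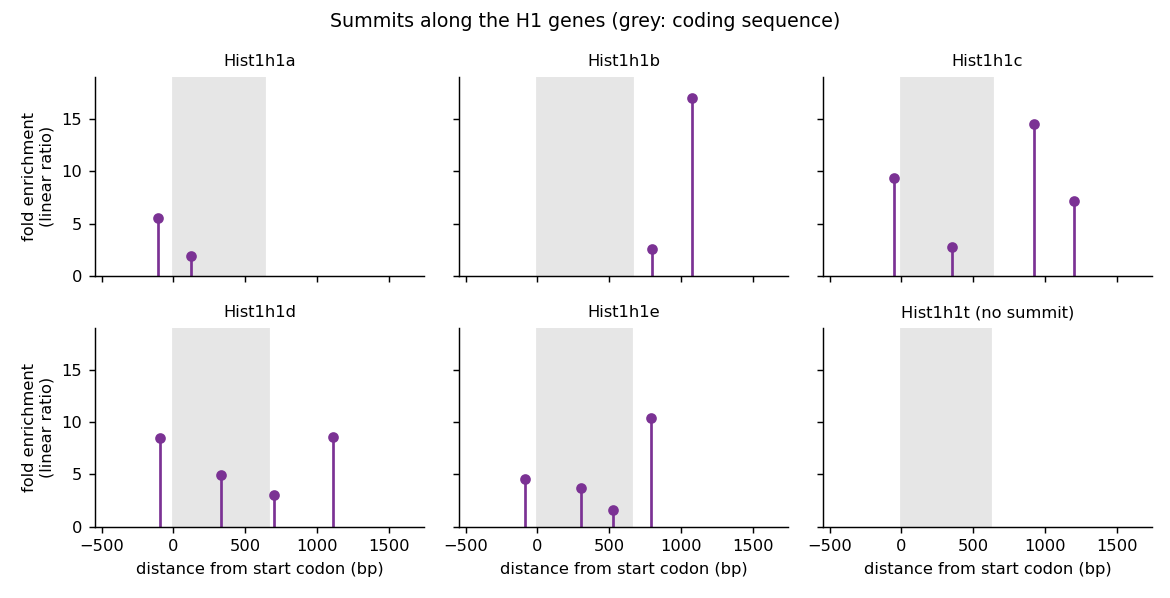
Fold enrichment (y axis, linear ratio) of each peak along the 6 H1 genes, by distance of its summit from the start codon (x axis, bp), with the coding sequence in grey. In Hist1h1b, Hist1h1c, Hist1h1d and Hist1h1e the peak of greatest fold lies to the right of the coding sequence (by a margin of 8.61 to 8.50 in Hist1h1d), in Hist1h1a it lies before it, and Hist1h1t has no peak.

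Regions near histone genes but outside their promoters were also counted, without a matching count over all genes. Beyond the promoter windows, 20 regions had a member's start as the nearest protein-coding start within 100 kb, 16 of them within 10 kb, with a median fold of 8.10. The highest was a narrow region of 290 bp at chr13:21803135-21803424, 6903 bp downstream of the start of Hist1h2bq, with a fold of 18.95. Next were chr13:22050158-22051467 near Hist1h2bj (17.4), chr13:23732525-23732941 near Hist1h1c (16.5), chr13:23585659-23586198 (12.8) and chr3:96277812-96278648 near Hist2h2bb (12.3). The region with 12.8 held a second RefSeq start of Hist1h2be, a gene whose annotated spliced transcript begins 35168 bp before its start codon. The region with 8.61 at the RefSeq start of Hist1h1d was also among the 20, so 2 of them overlapped a RefSeq start of a member. The number of regions assigned per gene, promoter regions included, was a median of 1 for members and of 1 over all protein-coding genes. None was assigned to 14 of 67 members (20.9%), against 9764 of 21853 genes (44.7%).

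CpG dinucleotides were frequent at member promoters. The median ratio of observed to expected CpG within 500 bp of the start was 0.878, against 0.557 over all protein-coding genes. The lowest members were Hist1h1d (0.12 at its distant annotated start) and Hist1h1t (0.44), neither of which had a promoter region.

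The genes around the members in the Hist1 cluster had a promoter region less often than the members. Of 48 other protein-coding genes that start between the first and the last Hist1 gene, 6 had a promoter region (12.5%). The 35 vomeronasal receptor genes of the Vmn1r family among them, which serve pheromone sensing, had none. Of the other 13 neighbours, 6 had one (46.2%), near the 49.7% of all protein-coding genes. The 6 genes were Abt1, Btn2a2, Hfe, Prss16, Zfp184 and Zfp322a, with folds from 8.31 to 25.3.

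Genes that act on histones or replace them were open in most cases. For comparison, 49.7% of all protein-coding genes had a promoter region, and the median fold of all promoter regions was 15.2. Of 14 replication-independent variants and related genes, 10 had a promoter region, with a median fold of 13.6. The highest were Cenpa (24.3), the centromeric H3 variant, and H2afx (22.9), the H2A variant phosphorylated at DNA breaks. The 4 without one were H2afy2, H1fx, H1fnt and Hils1, the last 2 known from spermatids. H1foo, the oocyte linker histone, had a region in its promoter window with a fold of 15.5, but none within 100 bp of its start. All 17 matched genes of histone transcription and mRNA processing had a region, with a median fold of 20.03. They included Lsm10 (29.0), a subunit of the U7 snRNP that cleaves histone mRNAs, Nfyc (27.6), a subunit of the CCAAT-binding NF-Y, Hinfp (23.1), an activator of H4 genes, Npat (20.03), the coactivator of the histone locus body, and Slbp (12.9), which binds the stem-loop. Pou2f1, which encodes the octamer-binding factor Oct-1, was the lowest at 7.84. All 11 histone chaperones and acetylation factors had a region, with a median fold of 15.4. Some regions of these lists also served another gene, so they are not particular to the genes named. They were those of Npat (with Atm), Zfp473 (Vrk3), Cpsf3 (Itgb1bp1), Nfya (Oard1), Asf1a (Mcm9), Asf1b (Gm10644), Hira (Mrpl40) and Rbbp4 (Zbtb8os). Regions at these promoters describe open chromatin and not the amount of mRNA.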

How the data were processed

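The deposited data were 3 lists of ATAC-seq peaks on mm10, taken to pool 2 technical replicates. Per the labels' text files, the authors called them from 1 filtered alignment. The aligner, peak caller, versions, read shift and library depth were not given in the sources used here. Each deposited peak has a fold enrichment (a linear ratio), a −log10 p, a score and a summit. The lowest score in the IDR-thresholded list the authors deposited was 540, an IDR of 0.05.

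Overlapping or touching peaks of that list, 58138 in all, were merged into 29415 regions, and each region took fold and summit from its highest peak. GENCODE M21 gave starts, and RefSeq GRCm38.p6 gave sequence and a second set of starts (all 67 members matched, 62 with a start). Words of 50 bases were counted over 21 chromosomes and both strands. Python 3.11.15, numpy 2.4.6, pandas 2.3.3 and scipy 1.17.1 were used, and merging and word counts were tested on simulated data. Members, gene lists and motifs were chosen with earlier results of these data known. Named were the 5 highest and 5 lowest members by the highest fold in their promoter window, those without a region, all of Hist2, Hist3 and Hist4, the pairs, the 5 highest other regions and variants without a region; H1 peaks past the stop codon, GGTCCG, and the other genes named were chosen after their values were seen. Of 18 entries for transcription and mRNA processing 17 matched a gene. Alternatives were other lists, thresholds, windows, starts and word lengths.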

Additional observations from a re-analysis of the deposited data

How the results depend on the processing

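Across the alternatives tried, 54 of the recomputed values stayed near the reported one and 9 moved. Keeping the upper 50% of regions by fold left 32 of 67 histone genes with a promoter region, 21 regions at histone promoters with a median fold of 16.9, a median of 0 for the share of the gene covered, and 3 other regions near histone starts. Under it the H1, H2A, H2B, H3 and H4 classes kept 2, 10, 15, 4 and 1 genes. The higher median fold follows from the cut itself. The share of all protein-coding genes under this cut is not given here, so it cannot be set beside the 32 histone genes. The pseudoreplicated list gave 33 other regions in place of 20. A window of 250 bp on either side raised the CpG ratio to 0.920, and the longer motif window raised the E2F-type count to 5 and the GC box count to 45. The GC box was then at 67.2% of members against 50.2% of all genes, a turn of the order, and the H1 box at 16.4% against 14.4%. The count of 63 genes with a region was 61 with a window of 500 bp, 65 with 2000 bp, 62 with peaks of an IDR up to 0.01, and 64 with RefSeq starts. The alternatives of 100 bp and of RefSeq starts were chosen after seeing the data. No paired analysis was possible because the lists hold no values per library, and for the same reason no replicate could be left out. Depth is unknown, so an unlisted region may be 1 that these reads could not show.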
